A study of Arabidopsis thaliana with 4 samples.

Results

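The chloroplast gene rbcL (ArthCp030) encodes the large subunit of Rubisco, and its coverage by sequenced RNA was read base by base at both ends of the transcript. The region was set by position: chloroplast bases 54701 to 56497 of the TAIR10.1 assembly, plus strand. It holds the coding sequence at 54958 to 56397 (1440 nt, 480 codons with the stop codon), the 257 nt before it and the 100 nt after it. rbcL is 1 of 130 distinct gene intervals annotated in the 154478 nt of the chloroplast genome. The neighbours are atpB, 801 nt upstream at 52660 to 54156 on the other strand, and accD downstream at 57075 to 58541. The annotation gives no untranslated regions for rbcL, so the bases before the start codon are called the leader and those after the stop codon the tail.

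The data come from RNA immunoprecipitation with an antibody against the HA epitope tag, followed by sequencing. Stroma, the soluble fraction of chloroplasts, was extracted from 2-week-old Arabidopsis thaliana plants, and 50 ng of recovered RNA went into each library. All plants were grown with 12 h of light at 21 °C and 12 h of dark at 18 °C. In one group the stroma came from transgenic plants with dPPRrbcL (genotype given as transgenic dPPRrbcL, 2 libraries), in the other from wild-type Col-0 plants (WT, 2 libraries), which carry no tagged protein that the labels name and serve as the background of the precipitation. The study asked whether the protein associates with rbcL mRNA and with which other RNAs. The promoter of the transgene, the number of lines, the genetic background of the transgenic plants and whether the replicates were separate extracts are not given in the labels. The p-values therefore measure the spread between these libraries, which may be technical.

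In plants, rbcL mRNA is made with a long leader that begins at the transcription start, and a shorter form arises when the 5′ end is trimmed. Pentatricopeptide repeat (PPR) proteins bind single-stranded RNA in a sequence-specific way, and a bound PPR protein can protect an RNA end from exonucleases. In Arabidopsis the PPR protein MRL1 is needed for the processed form of rbcL mRNA. At the 3′ end, chloroplast mRNAs commonly finish at an inverted repeat that folds into a stem-loop.

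The deposited values are reads per nucleotide without strand. Mean coverage of the chloroplast genome was 10373 to 12917 reads per nucleotide over the 4 libraries. Genes for rRNA and tRNA took 99.01% and 98.7% of the coverage in WT replicates 1 and 2, and 91.5% and 92.5% in dPPRrbcL replicates 1 and 2. The median position had 11 and 10 reads in WT, and 205 and 191 in dPPRrbcL. Scaled to the library total, 97.3% of the 112 genes tested were higher in dPPRrbcL (limma, adjusted p under 0.05) and 0 were lower, also at an unadjusted p under 0.05. More rbcL RNA and less rRNA in the recovered RNA cannot be told apart at that scale. Profiles within each library, as a percent of its own rbcL coding mean, do not depend on this scaling.

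Positions are counted from the start codon, with −1 the base before it and +1 its first base. Tail positions are counted from the last base of the stop codon. The sequences below are the 6 places of the transcript that the results turn on, each 30 nt of the plus strand read 5′ to 3′ from the TAIR10.1 chloroplast sequence of RefSeq. In chloroplast:54745-54774 the capitals mark the hexamers TTGCGC and TACAAT, in the form of the −35 and −10 elements of bacterial-type promoters. In chloroplast:54777-54806 the capital marks the base from which coverage rose most steeply in dPPRrbcL. In chloroplast:54844-54873 and chloroplast:54877-54906, the capitals run over the bases at which coverage reached 50% of its level at the start codon in the replicates of dPPRrbcL and of WT. In chloroplast:54943-54972 they mark the start codon. In chloroplast:56421-56450 the capital marks the last base before the 3′ step.
promoter elements: TTGCGCtatacatatgaaagaataTACAAT
5′ step: tgatgtatttggcgaAtcaaatatcatggt
50% of the start level in dPPRrbcL: gaaagattcctgtgAAaaaggttaattaaa
50% of the start level in WT: attcctaatttaTGTCGAGTagaccttgtt
start codon: tgtagggagggacttATGtcaccacaaaca
3′ end: gtttgttttattagtttaattgcactcggC

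Coverage of the coding sequence gives the level behind the profiles. WT replicates 1 and 2 averaged 674.5 and 777 reads per nucleotide there, against 24398 and 22189 in dPPRrbcL replicates 1 and 2. Both dPPRrbcL libraries lay above both WT libraries. Relative to the library total, with a pseudocount of 0.1% of the library mean (10.4 to 12.9 reads), the log2 change was 4.88 (SE 0.21, limma adjusted p = 1.10e-06 over 112 genes), rank 6, against 2.97 for the median gene. The scaling set its size: it was 1.07 (SE 0.09, limma adjusted p = 0.000968) by median-ratio scaling and 2.08 (SE 0.10, limma adjusted p = 0.000952) when the rRNA and tRNA genes were left out of the library total. Over the 12 alternatives run, the adjusted p ranged from 1.66e-52 to 0.00211.

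In bins of 10 nt laid from the start codon, all 179 bins laid in the region (25 in the leader, 144 in the coding sequence, 10 in the tail) were higher in dPPRrbcL relative to the library total (limma), and 0 were lower, also at an unadjusted p under 0.05. Over the whole genome 95.8% of the 13551 bins tested were higher and 0.893% lower, so the count for rbcL is near the background. By median-ratio scaling 152 of the 179 bins were higher, and 171 with rRNA and tRNA genes left out of the total. The size of the change varied along the gene more than its direction did. With this pseudocount the largest log2 change lay in the leader at −150 to −141 (8.09, SE 0.25, limma adjusted p = 1.31e-09). Without one it lay at −160 to −151 (9.22, against 9.17 at −150 to −141), where WT had 8.60 and 5.60 reads. With the pseudocount the largest in the coding sequence lay in its first 10 nt (6.55, SE 0.25, limma adjusted p = 1.31e-09). The smallest in the coding sequence was 3.88 (SE 0.27, limma adjusted p = 2.10e-08) at 1121 to 1130. In the tail the change ran from 5.46 in the first 10 nt to 1.15 in the last.

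**Figure D1:**
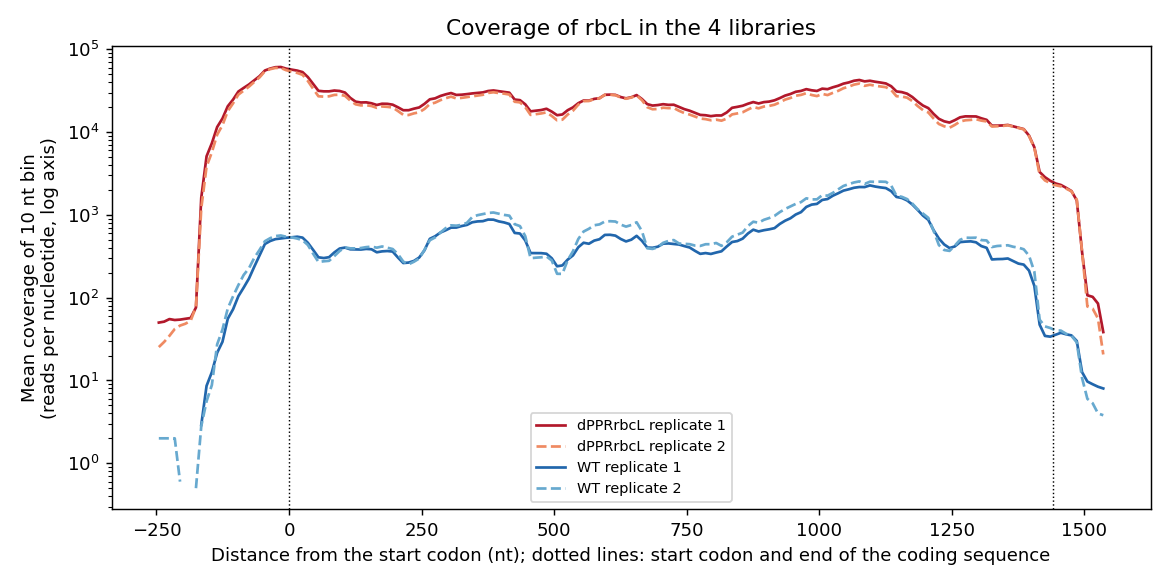
Mean coverage of 10 nt bins along rbcL in each library, in reads per nucleotide on a log axis, against the distance from the start codon in nt; the dotted lines mark the start codon and the end of the coding sequence, and bins at 0 reads are not drawn. The dPPRrbcL lines lie above the WT lines along the whole region, with the widest gap in the leader.

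At the 5′ end, coverage in dPPRrbcL rose at a sharp step 166 nt before the start codon. In dPPRrbcL replicate 1 it read 159 at −167, 586 at −166, 1747 at −165 and 2966 at −164, and in replicate 2 it read 167, 463, 1286 and 2123 at the same bases. WT replicate 1 read 0, 0, 3 and 6 there, and WT replicate 2 read 1, 2, 3 and 4. The dPPRrbcL libraries rose together over these bases, and WT rose by 6 and 3 reads. Smaller rises came before the step in both dPPRrbcL libraries. Replicates 1 and 2 went from 59 and 56 reads at −176 to 84 and 79 at −175. They went from 90 and 104 reads at −172 to 117 and 135 at −171.

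Upstream of the step, from −257 to −167, mean coverage was 0 and 1.20 reads in WT and 59.7 and 47.7 in dPPRrbcL. As a log2 ratio of the 10 nt from a base on to the 10 nt before it, the step was largest at −166 in both dPPRrbcL libraries, at 4.93 and 4.38. Chloroplast positions were ranked where the deeper of both 10 nt windows held a mean of at least 10 reads. Of 145389 and 145049 such positions, 8 and 12 had a rise at least as steep. These counts include the step itself, which was picked as the steepest of the leader, and overlapping windows. Without strand, rises can also be 3′ ends on the other strand. The counts therefore rank steepness and are no background for 5′ ends. In WT the steepest rise by this measure lay at −165 in replicate 1 (2.98) and at −138 in replicate 2 (1.60). Of 82016 and 81801 ranked positions, 51 and 236 were at least as steep. The rise in WT replicate 1 went from a mean of 0 to 6.90 reads, so it lies outside the positions it is ranked against. Coverage of under 10 reads in WT limits the placing of the step in that group.

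The step lay 18 nt downstream of the last base of the hexamer TACAAT (−189 to −184), which is separated by 18 nt from TTGCGC (−213 to −208). Searched on both strands of the 250 nt before the start codon of 83 protein-coding genes, TTGCGC occurred in 1 window (1.20%), that of rbcL, and TACAAT in 21 (25.3%). Both hexamers are those present before rbcL, so the match in its own window was given in advance. Only these exact letters were counted, so the counts do not tell how many other genes have promoter elements. These matches describe letters and do not show where transcription began.

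Downstream of the step the coverage climbed through the leader in all 4 libraries, and it climbed earlier in dPPRrbcL than in WT. Relative to the mean of the first 10 coding nt (536 and 534 reads in WT, 56618 and 53444 in dPPRrbcL), it reached 10% at −152 and −147 in dPPRrbcL and at −115 and −120 in WT. It reached 50% at −100 and −99 in dPPRrbcL and at −62 and −69 in WT, the bases in capitals above. It reached 90% at −50 and −52 in dPPRrbcL and at −36 and −46 in WT. The groups did not overlap at any of these marks.

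At −100 the level was 50.7% ± 1.13 (SD, n = 2) of the start level in dPPRrbcL and 20.8% ± 3.76 (SD, n = 2) in WT. At −60 it was 79.8% ± 1.10 (SD, n = 2) against 58.4% ± 7.43 (SD, n = 2), and at −20 it was 110% ± 2.73 (SD, n = 2) against 101% ± 6.63 (SD, n = 2). All libraries are set to 100% at the start codon by this measure, so the gap has to close toward it. With 2 libraries against 2 the exact two-sided permutation test cannot go below p = 0.333, which is the value whenever the groups do not overlap, here and for the segments below.

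Measured as the difference between the means of adjacent 10 nt, the largest rise of the leader lay at −51 in both WT libraries and at −50 in both dPPRrbcL libraries. There the coverage went from 315 to 435 and from 369 to 472 reads in WT, and from 47379 to 55359 in dPPRrbcL replicate 1. The rise was 17.9% and 13.2% of the coding mean in WT, and 32.7% and 38.3% in dPPRrbcL. The whole dPPRrbcL leader lay higher against the coding mean, so these sizes carry that level. Relative to the start level the order was reversed. From −60 to −40 coverage went from a mean of 58.4% to 92.2% in WT and from 79.8% to 104% in dPPRrbcL. The next largest rise at least 30 nt away lay at −81 and −95 in WT and at −116 in both dPPRrbcL libraries. With adjacent windows of 5 nt this position was −101 in WT replicate 1 and in both dPPRrbcL libraries, so it depends on the width.

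Rises between neighbouring bases were read inside the leader, where a processed 5′ end would lie. From −70 to −41 the largest rise between neighbouring bases was 4.11% and 3.56% of the start level in WT and 2.41% and 2.68% in dPPRrbcL. Over the whole leader it was 4.11% and 5.25% in WT, at −52 and −95, and 3.35% and 3.44% in dPPRrbcL, at −100 and −95. By the same measure the bases of the 5′ step, −166 to −163, gained at most 2.15% and 1.57% in dPPRrbcL, so single-base rises of this size do not tell an end from the climb around it. The files give coverage and not read ends, so the profiles neither place a processed end nor give the shares of primary and processed transcripts.

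**Figure D2:**
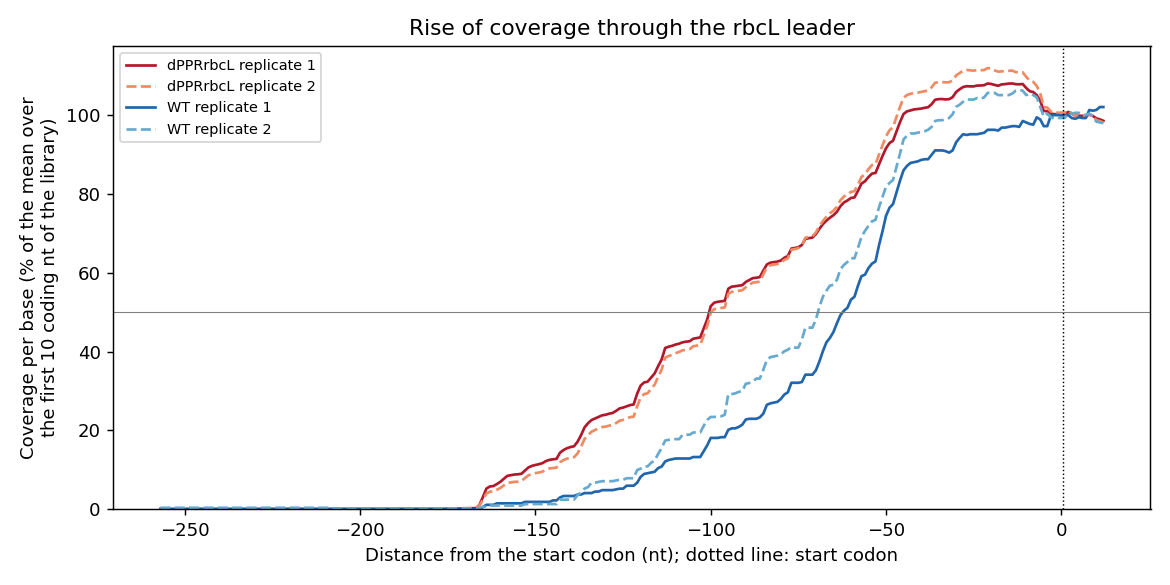
Coverage per base through the rbcL leader, as a percent of the mean over the first 10 coding nt of the same library, against the distance from the start codon in nt; the horizontal line marks 50% and the dotted line the start codon. The dPPRrbcL libraries cross 50% at −100 and −99, the WT libraries at −62 and −69.

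From the step to the start codon (−166 to −1) the mean coverage was 220.3 and 250.96 reads in WT and 34411 and 32548 in dPPRrbcL. This was 32.7% and 32.3% of the coding mean in WT and 141% and 147% in dPPRrbcL. The leader was less covered than the coding sequence in both WT libraries and more covered in both dPPRrbcL libraries. The group means were 32.5% ± 0.26 (SD, n = 2) and 144% ± 3.99 (SD, n = 2), a ratio of 4.43 (exact permutation p = 0.333, the smallest possible). The GC content was 28.3% over this stretch and 44.0% over the coding sequence. Over the 25 leader bins, which share reads with their neighbours, Pearson's r between GC content and the level was 0.26 and 0.24 in WT and 0.19 and 0.20 in dPPRrbcL.

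Both dPPRrbcL libraries were highest just before the start codon. Coverage stood at 61096 and 59254 reads at −11 and at 56805 and 53799 at the first base of the start codon. From −6 to −5 alone it fell by 1452 reads in replicate 1 and fell by 1875 reads in replicate 2. WT replicate 1 had 528 and 535 reads at −11 and +1, and WT replicate 2 had 567 and 530.

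The bins relative to the coding mean of the same library (pseudocount 1% of that mean) were tested with limma over all 13551 bins. In the leader 17 of 25 bins had a higher share in dPPRrbcL and 0 a lower one. At an unadjusted p under 0.05 these were 20 and 0. Over all 13551 bins 3.77% were higher and 44.2% lower. Bins of other genes, divided by the rbcL coding mean, carry the level of those genes against rbcL. These percentages are therefore no background for the shape of a transcript. The largest leader change on this scale was at −150 to −141, with 12.6 and 8.80 reads in WT and 7329 and 5700 in dPPRrbcL. This was 1.87% and 1.13% of the coding mean in WT and 30.04% and 25.7% in dPPRrbcL, a log2 change of 3.54 with an SE of 0.20 (limma adjusted p = 0.000836). The bin before it, −160 to −151, held 0.998% ± 0.39 (SD, n = 2) in WT and 19.1% ± 2.57 (SD, n = 2) in dPPRrbcL, a larger ratio of the shares themselves, so the order of these bins rests on the pseudocount. The 8 leader bins that did not pass all lie upstream of −170.

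In the coding sequence 47 of 144 bins had a higher share in dPPRrbcL and 24 a lower one. Coding shares average 100% in every library by construction, so higher bins have to be offset by lower ones. The 2 counts are therefore not independent results. The first 10 coding nt had the largest change, at 79.5% and 68.7% of the coding mean in WT and 232% and 241% in dPPRrbcL (log2 change 1.66, SE 0.13, limma adjusted p = 0.00137). The lowest was at 1121 to 1130, with 312% and 322% in WT and 158% and 157% in dPPRrbcL (log2 change −1.004, SE 0.10, limma adjusted p = 0.00295). In the tail the first 5 of 10 bins had a higher share and 0 a lower one (2 lower at an unadjusted p under 0.05), led by the first 10 nt (log2 change 0.83, SE 0.10, limma adjusted p = 0.00522).

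The called bins formed 5 unbroken runs. Neighbouring bins share reads, so the bins of a run, and the called bins counted above, are not independent results. A run of 44 bins from −170 to 270 had a higher share in dPPRrbcL, as did 10 bins from 451 to 550, 7 bins from 661 to 730 and 8 bins from 1411 of the coding sequence to +50 of the tail. The only run with a lower share was 24 bins from 971 to 1210. These calls rest on both dPPRrbcL libraries: without either of them no bin of rbcL passed, with 0 leader, 0 coding and 0 tail bins called by limma. At an unadjusted p under 0.05, 17 leader and 30 coding bins were then higher and 22 coding bins lower without replicate 1, and 17, 31 and 20 without replicate 2. Without WT replicate 2, 77 coding bins were higher and 4 tail bins lower, and without WT replicate 1, 3 tail bins were lower.

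**Figure D3:**
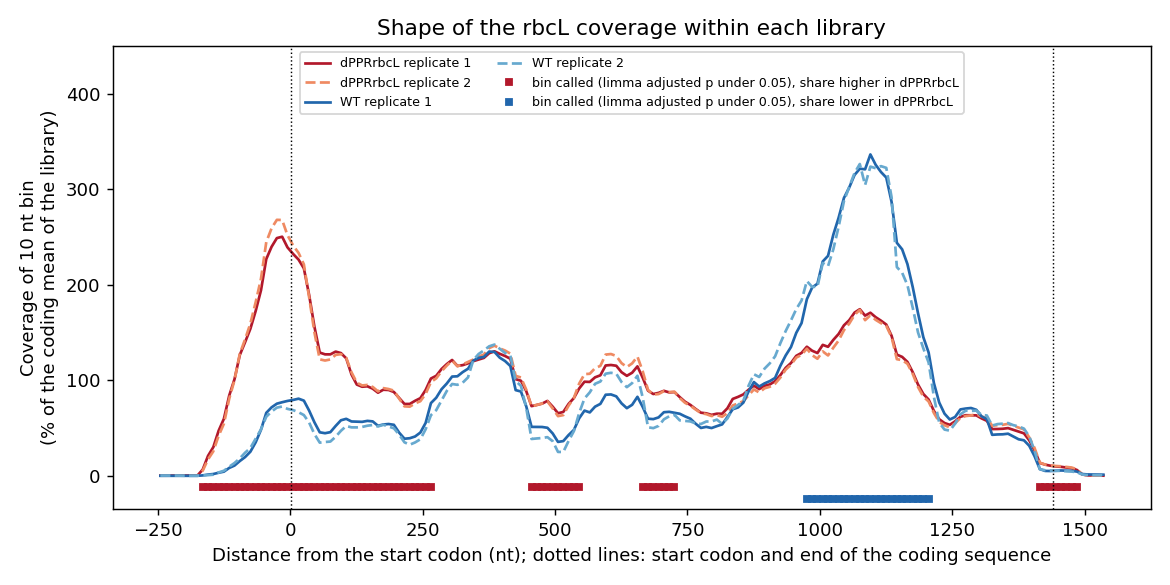
Coverage of 10 nt bins as a percent of the rbcL coding mean of the same library, against the distance from the start codon in nt; squares below the lines mark bins past the limma threshold, and dotted lines the ends of the coding sequence. In dPPRrbcL the highest bins lie around the start codon, in WT between 1071 and 1130.

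Within each group the profiles of the coding sequence were close to each other. Over 144 bins that share reads with their neighbours, Pearson's r was 0.988 between the WT libraries and 0.994 between the dPPRrbcL libraries, and 0.603 to 0.644 between libraries of different groups. In segments of 120 nt, the first held 60.5% and 49.6% of the coding mean in WT and 158% and 157% in dPPRrbcL. The ninth segment (961 to 1080) held 246% in both WT libraries and 146% and 141% in dPPRrbcL. The tenth (1081 to 1200) held 260% and 248% in WT and 136% and 133% in dPPRrbcL. WT coverage was thus highest from 961 to 1200, and it fell to 74.1% and 66.9% from 1201 to 1320. In dPPRrbcL the segment from 1 to 120 was highest, followed by those from 961 to 1200. From 121 to 240 dPPRrbcL held 86.6% and 86.8%. Neither group showed a steady slope along the coding sequence. The last segment (1321 to 1440) held 29.9% and 38.1% in WT and 36.3% and 39.2% in dPPRrbcL, where the groups overlapped.

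Several local peaks and troughs lay at shared places in all 4 libraries even where their heights differed. A trough lay between 211 and 230, a peak between 371 and 390, a trough between 501 and 520, a peak between 601 and 610 and a peak between 1071 and 1100. Other troughs were not shared: one lay at 791 to 800 in WT replicate 1 and dPPRrbcL replicate 1, at 681 to 690 in WT replicate 2 and at 811 to 820 in dPPRrbcL replicate 2. The peak near 380 stood at 130% and 137% of the coding mean in WT and at 130% and 136% in dPPRrbcL, where the groups overlapped. The peak near 1080 stood at 336% and 326% in WT and at 174% in both dPPRrbcL libraries. The trough near 510 was deeper in WT, at 35.5% and 24.95%, than in dPPRrbcL, at 65.5% and 62.5%. Across the 144 coding bins, Pearson's r between GC content and the level was 0.06 in both WT libraries and −0.05 in both dPPRrbcL libraries.

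At the 3′ end, coverage fell in several steps at bases that the libraries shared. The first described here lay inside the coding sequence. Coverage went from 129 and 180 reads at 32 nt before the last base of the stop codon to 51 and 57 at 28 nt before it in WT, and from 6123 and 6090 to 3437 and 3194 in dPPRrbcL. It then declined more slowly up to the stop codon, with 33 and 41 reads at its last base in WT and 2449 and 2318 in dPPRrbcL. An earlier fall lay at 35 nt before that base, with changes of −21 and −43 reads in WT and −833 and −807 in dPPRrbcL.

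The second step described here followed at +53 of the tail (position 56450). It is read here as the transcript end, although coverage without read ends places an end only approximately. In reads, dPPRrbcL lost more within the first step, with changes of −958 and −1040 at 29 nt before the last base of the stop codon. From +53 to +54 coverage fell from 766 to 145 reads in dPPRrbcL replicate 1, a loss of 81.1%, and from 859 to 115 in replicate 2, a loss of 86.6%. In WT it fell from 19 to 9 in replicate 1 and from 18 to 8 in replicate 2. All 4 libraries thus dropped between the same bases. In WT replicate 2 a fall of equal size, from 30 to 20 reads, came at +49, where dPPRrbcL also lost 390 and 343 reads. As a log2 ratio of adjacent 10 nt, the dPPRrbcL falls at +54 were −3.30 and −3.81. Of the positions ranked for the 5′ step, 21 and 15 fell at least as steeply, counted with the same limits. In WT they were −1.39 and −1.76, and 218 and 160 positions fell at least as steeply.

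**Figure D4:**
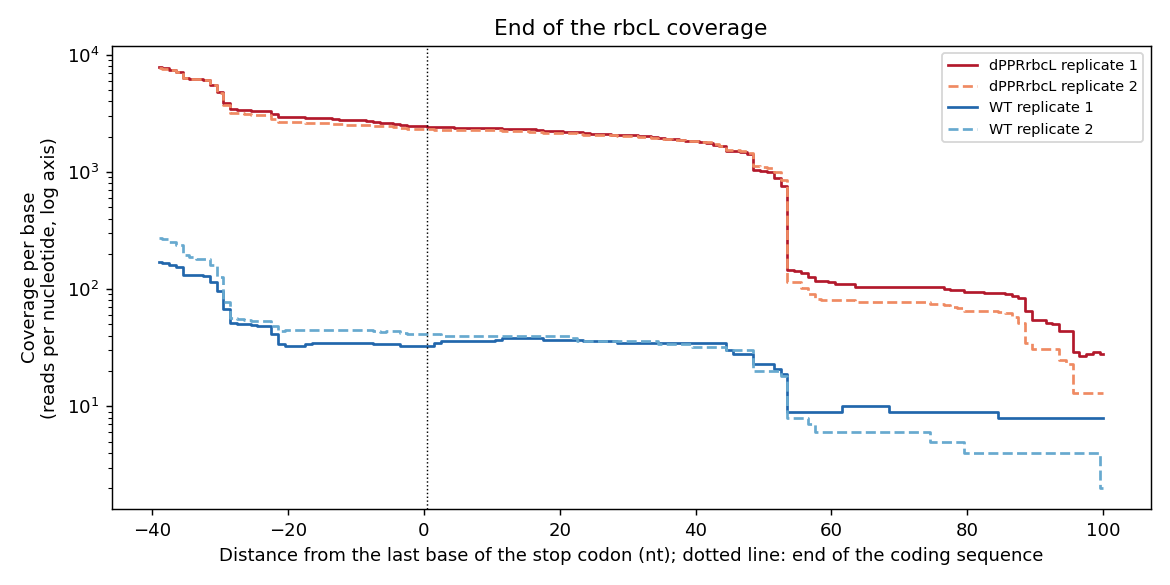
Coverage per base around the end of rbcL, in reads per nucleotide on a log axis, against the distance from the last base of the stop codon in nt; the dotted line marks the end of the coding sequence. All 4 libraries drop between +53 and +54, dPPRrbcL from 766 and 859 reads to 145 and 115.

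From +1 to +53 the tail held 34.1 and 35.1 reads in WT and 1983 and 1944 in dPPRrbcL, or 4.78% ± 0.38 (SD, n = 2) and 8.45% ± 0.45 (SD, n = 2) of the coding mean. The groups did not overlap (ratio 1.77, exact permutation p = 0.333, the smallest possible). Past the step, from +54 to +100, it held 8.81 and 5.11 reads in WT and 89.9 and 62.8 in dPPRrbcL, which is 0.98% ± 0.46 (SD, n = 2) and 0.33% ± 0.06 (SD, n = 2) of the coding mean. Folded in silico at 37 °C with ViennaRNA, the 53 nt from the stop codon to the step formed 18 base pairs between +2 and +47, with a loop between +22 and +27 and a minimum free energy of −7.3 kcal/mol. No sequence past the step was folded.

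To set the rbcL leader against other chloroplast genes, the coverage of up to 100 nt before the start codon was divided by the coding coverage (1 read added to each) in 71 genes with at least 50 nt free of other genes. For rbcL the ratio was 0.513 and 0.503 in WT and 1.99 and 2.11 in dPPRrbcL. The log2 change was 2.01 (SE 0.20, limma adjusted p = 0.0249), rank 3 of 71, against a median of 0.11 over all 71 genes. Of these genes 16.9% were higher and 11.3% lower. The call needs both dPPRrbcL libraries: the change was 2.05 without dPPRrbcL replicate 1 (limma adjusted p = 0.184) and 1.97 without replicate 2 (limma adjusted p = 0.202), and 0 genes were then called. At an unadjusted p under 0.05, limma gave 7 higher and 7 lower genes without replicate 1 and 8 and 4 without replicate 2. With 0.1 reads added in place of 1 it was 2.02 (limma adjusted p = 0.0518). Over the 11 alternatives the change ranged from 1.84 to 2.13 and the adjusted p from 1.16e-14 to 0.202.

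Only rpl22, which encodes a ribosomal protein, and ndhH, a subunit of the NDH complex, had a larger rise of the ratio. For rpl22 the log2 change was 2.27 (SE 0.40, limma adjusted p = 0.0416) and for ndhH 2.14 (SE 0.54, limma adjusted p = 0.0495). The mean flank coverage in WT was 0.364 and 0.800 reads for rpl22 and 1.38 and 0.0600 for ndhH, against 345 and 390 for rbcL. The 3 lowest called changes were −2.82 for ycf1 (ArthCp070), −1.69 for rps7 (ArthCp088) and −1.42 for ycf2 (ArthCp083). Each has a second annotated copy that shares all or part of its sequence, between which reads can be split. Those copies were at −1.10 for ycf1 (Arthcp087) and −0.33 for ycf2 (ArthCp066), neither called, and at −1.36 for rps7 (ArthCp069), also called lower. In WT the mean flank coverage was 2.64 and 2.08 reads for ycf1 (ArthCp070) and 2.34 and 3.74 for ycf2 (ArthCp083). For rps7 (ArthCp088) it was 129 and 137. The 1 read added therefore weighs on the WT ratios of ycf1 and ycf2.

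Natural PPR or PPR-like proteins are known to bind next to other chloroplast genes, and 9 such genes were compared with rbcL: atpH and rpl33 (PPR10, maize), psbH (HCF107, Arabidopsis), petB (HCF152, Arabidopsis), petA and psaC (CRP1, maize), petL (PGR3, Arabidopsis), ndhB (CRR2, Arabidopsis) and atpA (BFA2, Arabidopsis). At the 5′ flank 0 of the 9 had a higher ratio in dPPRrbcL and 2 a lower one (limma; 0 higher and 3 lower at an unadjusted p under 0.05), and the median log2 change was −0.00 against 0.11 over all genes. Over all 71 genes 16.9% were higher and 11.3% lower, so counts this small do not set the list apart. Both annotated copies of ndhB enter, so the list medians at both flanks are over 10 entries. The ratio of petA, which encodes cytochrome f, was 4.25 and 4.13 in WT and 2.12 and 2.18 in dPPRrbcL (log2 change −0.96, limma adjusted p = 0.0416). That of atpH, a subunit of ATP synthase, was 0.949 and 0.686 in WT and 0.405 and 0.370 in dPPRrbcL (log2 change −1.06, limma adjusted p = 0.0495).

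**Figure D5:**
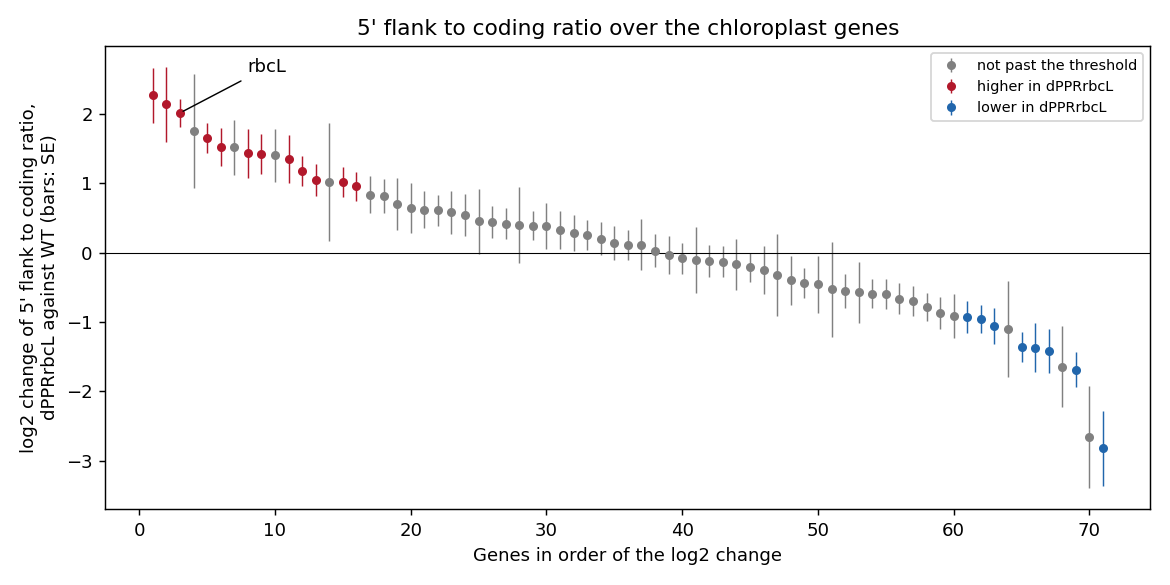
Log2 change of the 5′ flank to coding ratio, dPPRrbcL against WT, for 71 genes in order of that change; points are limma estimates, bars their SE and colours the calls at an adjusted p of 0.05. rbcL ranks 3 of 71, at 2.01.

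At the 3′ flank the rbcL ratio was 0.0343 and 0.0283 in WT and 0.0449 and 0.0478 in dPPRrbcL. The log2 change of 0.57 (SE 0.19, limma adjusted p = 0.124) did not pass and ranked 21 of 69 genes, with a median of 0.21 over all of them. Without WT replicate 1 it was 0.71 and passed (limma adjusted p = 0.00319), and over the 11 alternatives the adjusted p ranged from 0.00319 to 0.756. Here 18.8% of genes were higher and 4.35% lower. Of the 9 listed genes, 3 were higher (atpA at 3.22, petA at 1.91 and rpl33 at 1.15) and psbH was lower at −1.17, with a list median of 0.35. The largest changes over all genes were atpA, rps19 (2.65) and ndhI (2.61), and the lowest called were atpF (−1.99), psbM (−1.52) and psbH. Mean WT flank coverage was 5.93 and 2.54 reads for atpA, 0.364 and 0.800 for rps19 and 0 and 0 for ndhI. It was 1.13 and 0.520 reads for psbM, against 321 and 537 for atpF and 214 and 228 for psbH. Where the flank holds so few reads, the 1 read added sets much of the ratio. The 3′ flank of rps19 is also the 5′ flank of rpl22, and that of atpF the 5′ flank of atpA, so these values share reads.

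Over the 4 libraries, the 3 protein-coding genes of 84 whose scaled coverage followed that of rbcL most closely were psbJ, psaI and psbM, small photosystem subunits, at Euclidean distances of 0.213, 0.311 and 0.455 on the centred log2 scale. psbJ had 43.9 and 42.8 reads per nucleotide in WT and 1867 and 1621 in dPPRrbcL, so that its log2 change, 4.89 with an SE of 0.18 (limma adjusted p = 8.59e-07), was close to that of rbcL. The distance is over 4 libraries only. psbM had 2.23 and 1.60 reads in WT, below the pseudocount, so its place in this order is set in part by the pseudocount.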

How the data were processed

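The authors deposited, for each library, the read coverage of every chloroplast position, which per the file headers is a signal counted in reads, in whole numbers and with no normalization recorded. The mapper, its settings and the genome build are not given in the sources used here. Per the labels' protocols, libraries were made with a NEBNext Ultra II kit. The files hold 154478 positions, the length of the TAIR10.1 chloroplast sequence, whose annotation was used. The number of reads is unknown, so no counting interval was computed.

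Mean coverage was taken over 10 nt bins laid from the rbcL start codon (7 leader bases fell outside), over gene intervals and over flanks. log2 values with the stated pseudocounts were tested with limma 3.58.1 (R 4.3.3) between dPPRrbcL and WT, without covariates, on features with a mean coverage of at least 10. The p-values were Benjamini-Hochberg adjusted over all features at 0.05. Fold changes on this scale are understated where coverage is low. Single values had an exact permutation test over the 4 libraries. The fit was tested on simulated data. Folding used ViennaRNA 2.7.2, other steps Python 3.11.15 with numpy 2.4.6, pandas 2.3.3 and scipy 1.17.1.

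Alternatives were other scalings, pseudocounts, filters, bin, step and flank widths, a replicate block and leaving out each library. rbcL bins with the extreme change in leader, coding sequence and tail were named, with the 3 highest and 3 lowest called genes per flank, the 9 listed genes and the 3 genes most like rbcL. The members and lists were chosen with earlier results of these data known.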

Additional observations from a re-analysis of the deposited data

How the results depend on the processing

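Relative to the library total, 0 rbcL bins were lower in any run. With 10 nt bins, 152 to 179 were higher; 20 nt bins gave 89 higher. Genome-wide, 2784 bins were higher and 2576 lower by median-ratio scaling, 4289 and 1273 when scaled outside rRNA and tRNA genes, and 56 were lower with a pseudocount of 0.01%. With a minimum coverage of 100, 7389 were higher. With bins of 20 nt, 6492 were higher and 60 lower. Within rbcL, 20 nt bins gave 9 leader, 25 coding and 2 tail bins with a higher share and 13 coding bins with a lower share. With a pseudocount of 0.1% of the coding mean, 1 tail bin had a lower share.

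For the 5′ flank, 10 reads added gave 25 genes with a lower ratio. With 0.1 reads added, 0 genes were higher and 0 lower by limma (15 and 13 at an unadjusted p under 0.05), and the rbcL change of 2.02 no longer passed. A 60 nt flank gave 7 higher genes and a 150 nt flank 5 lower ones. For the 3′ flank, 10 reads added gave 18 lower genes, a 60 nt flank 3 higher and 1 lower, and a 150 nt flank 6 lower.

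Step positions moved with the width, the second rise by the most. With 5 nt windows the largest rise lay at −50 and −47 in WT and −48 in both dPPRrbcL libraries, the second at −101 in WT replicate 1 and both dPPRrbcL libraries, and the largest fall at 54, 53, 53 and 54 in WT replicate 1, WT replicate 2 and dPPRrbcL replicates 1 and 2. With 20 nt windows the largest rise lay at −54 and −57 in WT and −52 in both dPPRrbcL libraries, the second at −113 in dPPRrbcL, and the fall at 49 in WT replicate 2 and dPPRrbcL replicate 1 and 52 in dPPRrbcL replicate 2. As log2 ratios the largest rise lay at −165 and −138 in WT and −166 in dPPRrbcL, the second at −120 and −168 in WT and −136 in dPPRrbcL, and the fall at 54 in all 4.

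Leaving out each library in turn gave 12229 to 12996 genome bins higher and 67 to 150 lower. Within rbcL it gave 0 to 23 leader, 0 to 77 coding and 0 to 5 tail bins with a higher share, and 0 to 33 coding and 0 to 4 tail bins with a lower share. Genes with a higher 5′ flank ratio numbered 0 to 21 and with a lower one 0 to 17. For the 3′ flank they numbered 5 to 29 and 0 to 16. The rbcL changes were 1.97 to 2.05 at the 5′ flank and 0.43 to 0.71 at the 3′ flank. The lone library of a group is then assumed to vary like the other group. The cause of these shifts was not tested.

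Deviations of same-numbered libraries correlated at −0.07 over bins, −0.40 over genes, −0.16 over shares, −0.03 over 5′ flanks and 0.36 over 3′ flanks. With 2 libraries per group these values cannot decide whether replicate numbers pair the libraries. With the replicate block, 17 leader, 40 coding and 4 tail bins had a higher share and 23 coding bins and 1 tail bin a lower one, and the rbcL 5′ flank change stayed at 2.01 (limma adjusted p = 0.000453). Crossing the numbers, chosen after seeing the data, gave 17, 41 and 5 bins higher and 0, 23 and 0 lower.

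With 2 libraries per group, and under 10 reads in WT at the 5′ step, small shifts of the WT ends were not detectable at this depth.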
